A study of Zea mays with 2 samples.

Results

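Closely spaced loci of the maize genome were followed by RNA-seq of endosperm at 18 days after pollination, in wild type (WT) and in the defective kernel mutant dek37. A locus was included where it lay on chromosomes 1 to 10, held a single entry of the deposited tables, spanned less than 20000 bases and had another such locus less than 1000 bases from it. This gave 11310 loci out of 44372 that met the first 3 conditions (25.5%) and out of 56848 entries in all. They formed 6164 neighbouring pairs. The choice used positions only and no expression value. Each genotype gave 1 library, of 18139532 reads in WT and 19106174 in dek37 as worked out from the values, so every difference below is one between 2 libraries, with no replicate check and no p-value. The sources used here do not give the mutant allele, the inbred background or the number of pooled kernels. Entries carry positions but no gene names and no strand, and the genome build is not given, so that neither gene identities nor endosperm markers were analysed here.

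As background, maize genes tend to lie in small islands between long stretches of retrotransposons. Neighbouring genes that point away from each other can share a promoter region, genes that point towards each other can end close together, and neighbours that point the same way can be tandem copies, as in storage protein families of the endosperm. The DEK37 gene is known to encode a mitochondrial protein of the pentatricopeptide repeat family, which acts in intron splicing. A listed locus pair can also be a single gene annotated as 2 pieces. Orientation, family and annotation were not known for these loci, and their part in the results was not tested, nor was that of reads shared between near-identical copies.

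The gap between neighbours had a median of 459.5 bases, with quartiles of 261 and 702. A total of 424 pairs were less than 100 bases apart, 205 of them less than 50, and 2 pairs had a gap of 0. No loci overlapped. Most members, 8652, stood in isolated pairs of the list, and the rest formed longer rows in which each locus was less than 1000 bases from the next. There were 661 rows of 3 loci, 125 of 4, 29 of 5 and 5 of 6. Members were spread evenly, at 23.96% to 27.1% of the eligible loci of each chromosome. Their median span was 1630 bases, against 1931 for the other 33062 eligible loci. Only 2 pairs had an entry of another kind (long or with several entries) lying in the gap, and 4103 pairs had no further entry of any kind within 1000 bases.

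Levels of the closely spaced loci were close to those of other loci. The median level was 1.61 RPKM (reads per kilobase, corrected for library size) in WT and 2.18 RPKM in dek37, against 1.41 and 2.01 RPKM for the other eligible loci. A mean of both libraries below 1 RPKM was found for 4595 members (40.6%), 3863 had a mean of 1 to 10 RPKM, 2566 of 10 to 100 RPKM, 270 of 100 to 1000 RPKM and 16 of at least 1000 RPKM. The share below 1 RPKM was 41.7% for the other eligible loci. Together the members took 16.1% of the summed RPKM of WT and 17.6% of that of dek37. At the low end, 2960 members in WT and 2491 in dek37 stood at the value of 1 read, the smallest the files contain, which cannot be told from 0. At the edge of the rule, the 234 pairs with gaps of 950 to under 1000 bases had a median mean level of 1.965 RPKM, and the 212 pairs with gaps of 1000 to under 1050 bases had 2.35 RPKM.

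Neighbours resembled each other in level, but weakly. On the log2(RPKM + 1) scale, Pearson's r between the 2 loci of a pair was 0.211 in WT and 0.222 in dek37 over 6164 pairs, with each pair entered in both orders. Over every possible pair of eligible loci of the same chromosome (103620982 pairs) it was 0.0016 in WT and 0.0019 in dek37. Spearman's rho between neighbours was 0.242 and 0.252. These are descriptions with no p, since loci share a library and a locus of a longer row enters more than 1 pair. The r between neighbours was positive on all 10 chromosomes, with WT values from 0.165 to 0.243. Within a chromosome, r over every possible pair is fixed at a slightly negative value by the number of loci, whatever their levels. The r over every possible pair is thus a reference point and not a measured lack of likeness.

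In absolute terms the median distance between neighbours' levels was 1.18 log2 units in WT and 1.31 in dek37, against 1.63 and 1.82 for every possible pair. Both loci had a mean of at least 1 RPKM in 2477 pairs (40.2%), against 34.5% of every possible pair. Neither did in 1320 pairs (21.4%), against 17.1%. In the remaining 2367 pairs (38.4%, against 48.4%), a locus with at least 1 RPKM lay beside one below it. Part of the likeness thus lay in which loci reached 1 RPKM at all. Among the 2477 pairs with both loci at 1 RPKM or more, r was 0.149 in WT and 0.165 in dek37. In WT it was 0.248 below 100 bases, 0.264 at 100 to under 250, 0.117 at 250 to under 500 and 0.108 at 500 to under 1000. Such consecutive loci farther apart had 0.109 at 1000 to under 5000 bases and 0.115 at 5000 to under 20000. In dek37 the same classes gave 0.258, 0.246, 0.146, 0.121, 0.0924 and 0.0998.

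**Figure D1:**
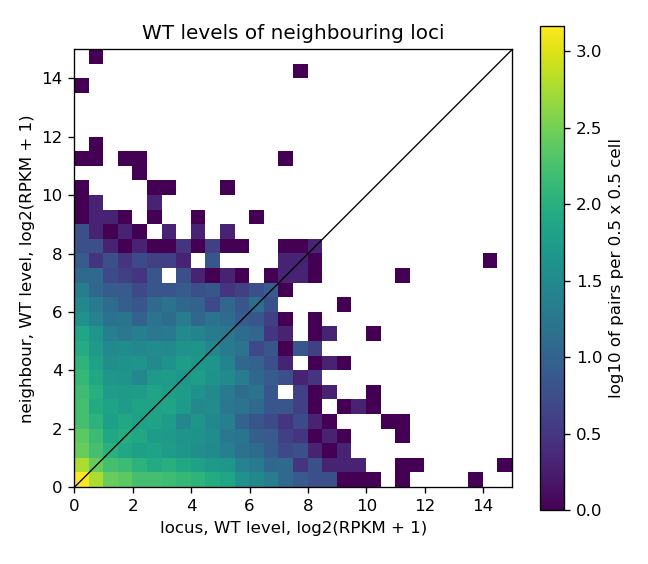
WT levels of the 2 loci of each neighbouring pair, log2(RPKM + 1) on both axes, with each of the 6164 pairs drawn in both orders and the colour giving the log10 of the number of pairs per cell. Pairs fill the whole lower left field and show no narrow band along the diagonal line of equal level, with r = 0.211.

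The likeness was stronger at short gaps. In WT, r of the level was 0.306 for the 424 pairs less than 100 bases apart, 0.353 for the 1006 pairs at 100 to under 250 bases, 0.218 for the 1933 pairs at 250 to under 500 bases and 0.140 for the 2801 pairs at 500 to under 1000 bases. Beyond the limit of the rule, consecutive loci had r = 0.122 at 1000 to under 5000 bases and 0.0497 at 100000 bases or more. In dek37 the same classes from the closest pairs outwards gave 0.310, 0.355, 0.232, 0.150, 0.122 and 0.0458. Both classes below 250 bases thus had higher values than all classes above it, in both libraries. At the limit itself, r of the WT level was 0.0949 for gaps of 950 to under 1000 bases (234 pairs) and 0.0397 for gaps of 1000 to under 1050 bases (212 pairs).

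**Figure D2:**
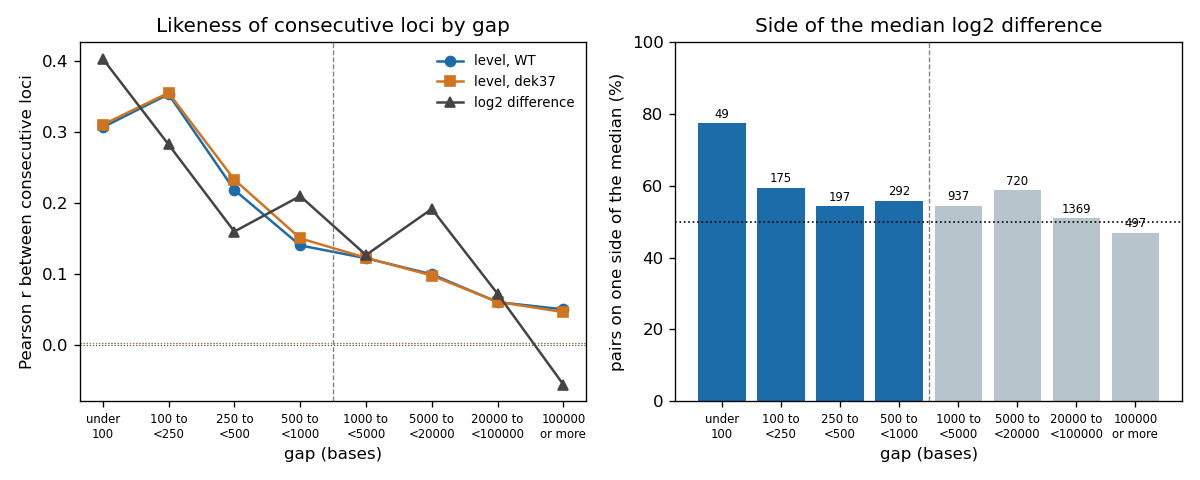
Left, Pearson's r between consecutive loci by the gap between them in bases, for the WT level, the dek37 level and the log2 difference between the libraries, with dotted lines for every possible pair of 1 chromosome. Right, share of pairs with both differences on the same side of the median, in percent, with the number of pairs above each bar and the dotted line at 50.02%; the dashed vertical lines mark the 1000-base limit, and the share is 77.6% for the 49 closest pairs.

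The neighbours of the most abundant members were mostly low. The 16 members whose mean reached 1000 RPKM had 17 neighbours, whose median mean level was 1.26 RPKM. The median of all eligible loci was 1.84 RPKM. Of the 17, 5 reached 10 RPKM (29.4%, against 25.03% of all eligible loci). Members of 10 to 100 RPKM had neighbours with a median of 5.38 RPKM, of which 38.7% reached 10 RPKM. Members of 100 to 1000 RPKM had 286 neighbours, with a median of 4.15 RPKM, of which 34.6% reached 10 RPKM. The neighbours of members below 1 RPKM had a median of 0.859 RPKM, and 17.7% reached 10 RPKM. Neighbours of members of 10 to 1000 RPKM were thus above the median of all eligible loci, and those of the 16 most abundant members, a small group, were not.

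The pair with the largest level difference in WT lay on chromosome 4. The locus at 5089369 to 5090254 had 30455 RPKM in WT against 10772 in dek37. Only 858 bases before it, the locus at 5088206 to 5088510 had 0.967 RPKM in WT against 0.918 in dek37, the value of 1 read in each library. The second such pair was on chromosome 2, where the locus at 160150779 to 160152270 had 13227 RPKM in WT against 6752 in dek37. Its neighbour 975 bases away, at 160153246 to 160153426, also stood at 1 read in each library (0.310 and 0.294 RPKM). At both places a locus with very many reads adjoined one with no more than the lowest value.

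**Figure D3:**
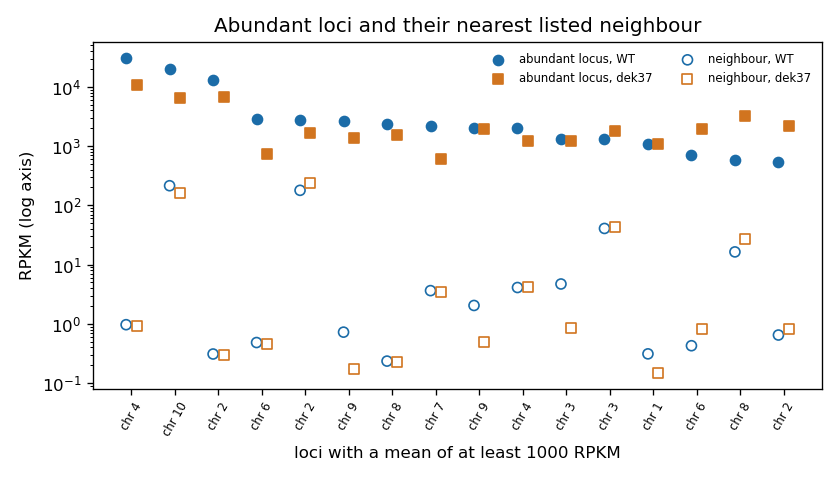
RPKM on a log axis of the 16 members whose mean reached 1000 RPKM (filled) and of the nearest neighbour of each (open), in WT (circles) and dek37 (squares), ordered by WT level and labelled by chromosome. The open symbols spread from 0.148 to 235 RPKM and do not follow the order of the filled ones.

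Between the libraries the closely spaced loci had about the same median difference as other loci, with a slightly smaller spread. The difference is log2(RPKM + 1) in dek37 minus that in WT, and it was read where the higher library had at least 10 RPKM, which 3179 members reached. The pseudocount of 1 understates changes of low loci. The median difference was 0.37 (95% order-statistic interval 0.35 to 0.39, over loci taken as independent), the SD over loci was 0.709 and the range ran from -4.08 to 5.62. The median over all 17017 entries at that level was 0.39. For the 9310 other eligible loci at that level it was also 0.39, with an SD of 0.778. A shift of about that size was not seen at every level. By mean of both libraries, the median difference of members was 0.34 from 10 to 100 RPKM and 0.34 from 100 to 1000 RPKM. Among the 16 most abundant members, from 1000 RPKM upwards, it was -0.67, and only 4 were higher in dek37. For all 91 entries in that range it was -0.74, with 27 higher. With totals made equal without the 50 most abundant entries, the median of members fell to 0.0758. Library scaling and RNA content cannot be told apart as the source of the shift, and its cause was not tested.

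At least 2-fold higher in dek37 were 400 members, or 12.6% of the 3179, and 95 members (2.99%) were at least 2-fold lower. Over all 17017 entries the shares were 14.8% higher and 3.07% lower. With the median difference of all entries set to 0, 174 members (5.47%) were higher and 189 (5.95%) lower, beside 7.27% and 5.91% of all entries. The share of higher loci among the called members went from 80.8% to 47.9% by that scaling. At least 4-fold higher were 67 of the 3179 members and at least 4-fold lower were 17. Among the 17017 entries, 441 (2.59%) and 124 (0.729%) were so, both somewhat larger shares than those of the members.

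Neighbours also resembled each other weakly in their difference, which was read over fewer pairs and at higher levels than the likeness of level. Both loci had at least 10 RPKM in the higher library in 713 pairs, which hold 1367 loci. Over these pairs r of the difference was 0.222 and Spearman's rho was 0.227. Over every possible pair of the same chromosome at that level r was -0.000093, and over every possible pair of the same 1367 loci it was -0.0041. The value for neighbours was positive on all 10 chromosomes, with a range from 0.0738 to 0.363 over 47 to 115 pairs each. As for the level, r over every possible pair of a chromosome is fixed at a slightly negative value by the number of loci. Both differences of a pair come from the same 2 libraries, so r describes likeness within them and not a repeated response.

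The median distance between the differences of neighbours was 0.45 log2 units, against 0.57 for every possible pair and 0.53 for every possible pair of the same 1367 loci. Both loci lay on the same side of the median difference in 412 of the 713 pairs (57.8%), against 50.02% of every possible pair. A split at the median of these loci sets the latter share near that value in advance. The share of neighbours exceeded that of every possible pair on 9 of the 10 chromosomes, the exception being chromosome 9 with 44.7% of 47 pairs. For consecutive loci farther apart the share was 54.4% at 1000 to under 5000 bases and 58.75% at 5000 to under 20000 bases. It was 51.0% at 20000 to under 100000 bases and 46.9% at 100000 or more. A share near 57.8% was thus not particular to gaps below 1000 bases. Counting error was part of the distance. Over the 693 pairs with at least 5 fragments at each locus in each library, the median standard error of the distance was 0.277 log2 units. The 95% normal interval of the distance left out 0 for 283 of the 693 (40.8%), and for 52.0% of every possible pair. These intervals cover counting error only, and they rest on the smallest fitting read numbers, so they can be too wide.

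By gap, r of the difference was 0.403 for the 49 pairs less than 100 bases apart, 0.282 for the 175 at 100 to under 250 bases, 0.159 for the 197 at 250 to under 500 bases and 0.209 for the 292 at 500 to under 1000 bases. Among the closest 49 pairs, 38 (77.6%) had both differences on the same side of the median, and their median distance was 0.27. In the next 3 classes 59.4%, 54.3% and 55.8% of pairs were on the same side. Farther than the limit of the rule, r was 0.126 over 937 consecutive pairs at 1000 to under 5000 bases, 0.191 over 720 at 5000 to under 20000 bases and -0.056 over 497 at 100000 bases or more. The decline was less regular than that of the level.

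Pairs were also taken within classes of mean RPKM, to compare neighbours with loci of like level. For the 203 neighbouring pairs with both loci at 10 to 30 RPKM the median distance of the differences was 0.37, against 0.52 for every possible pair of that class and 0.44 for every possible pair of the same loci. The 73 pairs with both at 30 to 100 RPKM had 0.25, against 0.50 and 0.42. For the 9 pairs with both at 100 to 300 RPKM it was 0.15, against 0.56 and 0.44, and no neighbouring pair had both loci at 300 RPKM or more. Neighbours were nearer to each other than other loci of their level in each of these 3 classes, the last of which rests on few pairs.

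Joint changes of at least 2-fold were few. Both loci were at least 2-fold higher in dek37 in 16 of the 713 pairs (2.24%), beside 2.20% of every possible pair of eligible loci of the same chromosome. The share was 1.59% over every possible pair of members and 1.58% over every possible pair of the same 1367 loci. The 16 pairs thus lay near the first value and above the others. Consecutive loci farther apart had larger shares, 2.67% at 1000 to under 5000 bases and 4.44% at 5000 to under 20000 bases. At 20000 to under 100000 bases the share was 2.78%, and at 100000 or more it was 3.02%. Both loci of a neighbouring pair were at least 2-fold lower in 1 pair (0.140%, beside 0.0951%). In the same wider gap classes that share was 0.534%, 0.278%, 0.657% and 0%. In 1 neighbouring pair a locus was 2-fold higher and its neighbour 2-fold lower (0.140%, beside 0.911%). In 141 pairs 1 locus was higher and the other changed less than 2-fold, in 33 pairs 1 was lower and the other changed less than 2-fold, and in 521 pairs (73.1%) neither reached 2-fold. With the median difference set to 0, the pairs with both higher numbered 4 (0.561%, beside 0.520%), those with both lower 10 (1.40%, beside 0.342%), and opposite ones 2 (0.281%, beside 0.844%). By that scaling the share of pairs with both lower was thus above the background, on 10 pairs. Among the tested neighbours of a 2-fold higher member, 32 of 174 (18.4%) were themselves 2-fold higher, counting each of the 16 pairs from both sides, beside 12.5% of the 1367 loci. Among the tested neighbours of a 2-fold lower member, 2 of 36 (5.56%) were 2-fold lower, beside 36 of the 1367 loci and 2.99% of all 3179 tested members. These 2 are the loci of the 1 pair with both lower, counted from both sides, so that share rests on 1 pair.

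**Figure D4:**
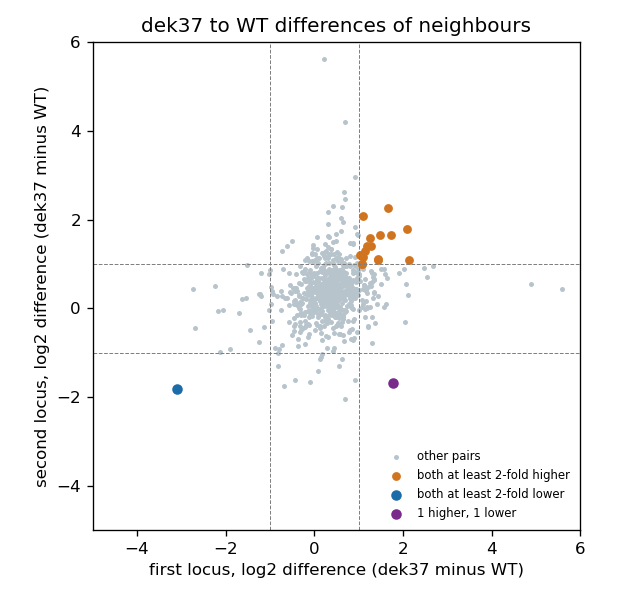
Log2 difference (dek37 minus WT) of the first locus against that of its neighbour for the 713 pairs with at least 10 RPKM at both, first and second in the order of position, with dashed lines at 2-fold. The 16 pairs with both higher sit in the upper right corner, the 1 pair with both lower and the 1 opposite pair are drawn larger, and most loci beyond 2-fold have a neighbour within 2-fold.

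The strongest joint increase was on chromosome 5. The locus at 74640062 to 74641850 had 3.33 RPKM in WT against 17.6 in dek37, and the locus 634 bases further on, at 74642485 to 74645616, had 2.31 RPKM in WT against 10.5 in dek37. Both were thus higher in dek37, by ratios of 5.28 (exact counting interval 3.92 to 7.23) and 4.56 (3.08 to 6.95). On chromosome 2, 17.9 RPKM in WT against 58.9 in dek37 at 183197099 to 183198186 stood 372 bases before 3.89 RPKM in WT against 22.6 in dek37 at 183198559 to 183200448. The third pair, on chromosome 8, went from 2.63 to 11.04 RPKM at 149014954 to 149015920 and from 3.37 to 12.8 RPKM at 149016147 to 149016539. Its smallest fitting read numbers in WT were 14 and 8. On these, its ratios of 4.20 (1.82 to 11.3) and 3.80 (1.23 to 15.6) are loosely fixed, though the true counts can be larger.

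The 1 pair with both loci 2-fold lower was on chromosome 2. The locus at 232364258 to 232366808 had 146 RPKM in WT against 16.3 in dek37, with WT higher by a factor of 8.95 (counting interval 7.45 to 10.8). Its neighbour 646 bases away, at 232367455 to 232368404, had 20.4 RPKM in WT against 5.06 in dek37, a factor of 4.03 (2.33 to 7.33). Next by the same ranking came a pair on chromosome 7, where 156270481 to 156272386 had 13.4 RPKM in WT against 2.28 in dek37, and 156272658 to 156275850 had 21.2 and 10.2 RPKM. The second locus of that pair had a difference of -0.98 and so was not counted as 2-fold lower. On chromosome 5, the locus at 178825155 to 178825870 had 12.1 RPKM in WT against 2.52 in dek37, and its neighbour at 178826457 to 178829900 had 93.4 and 48.7 RPKM, a difference of -0.92.

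The opposite pair lay on chromosome 5, with a gap of 958 bases. The locus at 193546737 to 193553758 had 2.76 RPKM in WT against 11.9 in dek37, a ratio of 4.30 (counting interval 2.98 to 6.35). The locus at 193554717 to 193559037 had 25.9 RPKM in WT against 7.43 in dek37, so that WT was higher by a factor of 3.49 (2.68 to 4.601). The order of the 2 loci by level was reversed between the libraries.

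**Figure D5:**
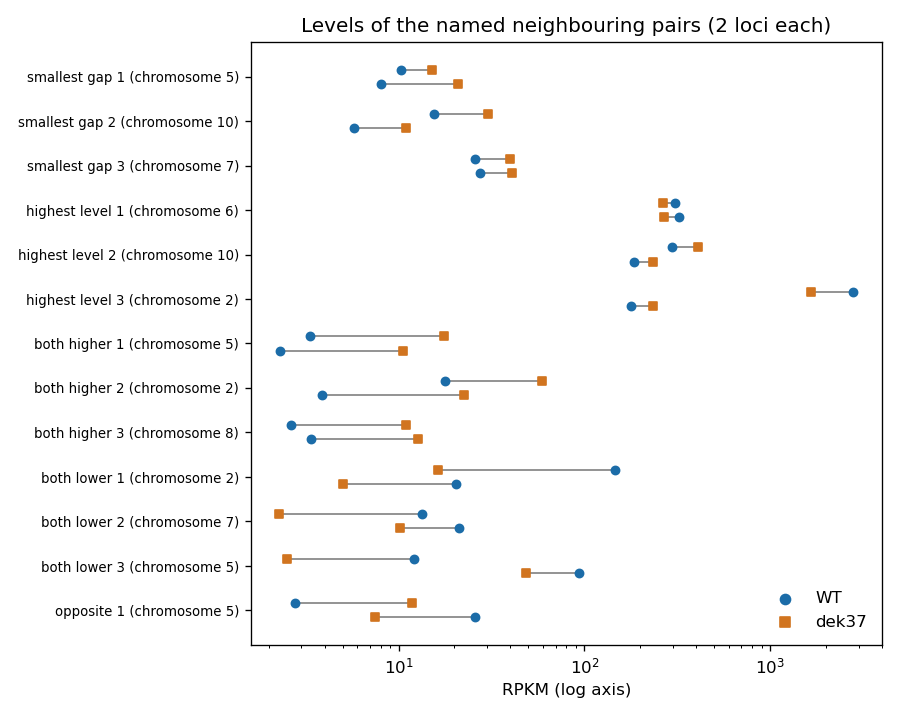
RPKM on a log axis in WT (circles) and dek37 (squares) for the 2 loci of each pair named for its gap, level or differences, in the order of position. Lines of a pair run the same way in 11 of the 13 pairs, which had been ranked partly by that direction, and run opposite ways in the third pair by level and in the pair chosen for opposite calls.

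The closest pairs with at least 10 RPKM at both loci were 3 to 4 bases apart. On chromosome 7, 16668240 to 16669020 had 25.8 RPKM in WT against 39.8 in dek37, and 16669025 to 16671357 had 27.3 and 40.6 RPKM. These 2 loci hardly differed in level or in ratio, at 1.54 (counting interval 1.02 to 2.35) and 1.49 (1.04 to 2.14). On chromosome 10, 85839062 to 85839683 had 15.6 RPKM in WT against 30.2 in dek37, and 85839687 to 85840376 had 5.79 and 10.98 RPKM. Here the levels differed while the ratios, 1.94 and 1.90, were close. On chromosome 5, 15203912 to 15207473 had 10.3 RPKM in WT against 15.1 in dek37, and 15207477 to 15208970 had 8.05 and 20.9 RPKM. The second of these was higher in dek37 by a ratio of 2.60 (1.94 to 3.51) and the first by 1.46 (1.12 to 1.91), with intervals that do not overlap. Its difference of 1.27 fell below 2-fold under each of the 3 other scalings and with a pseudocount of 5.

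Among pairs with both loci abundant, the highest lay on chromosome 6 with a gap of 304 bases. The loci at 151794307 to 151794728 and at 151795033 to 151797938 had 308 and 325 RPKM in WT and 265 and 268 RPKM in dek37. Both were a little lower in dek37, with differences of -0.22 and -0.28, where most entries were higher. The second pair, on chromosome 10, had 297 RPKM in WT against 408 in dek37 at 128863028 to 128864550. At 128864859 to 128868237, 308 bases away, it had 186 and 233 RPKM, so the differences were 0.46 and 0.33. The third pair differed within itself. On chromosome 2, the locus at 216607457 to 216609981 had 2803 RPKM in WT against 1662 in dek37 (difference -0.75), and the one 687 bases away at 216610669 to 216612249 had 179 and 235 RPKM (difference 0.39).

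Longer rows were examined next. The 5 rows of 6 loci were the longest, and the 3 with the highest summed level were examined. The first spanned 21.5 kb on chromosome 5, from 37213596 to 37235046. Its WT levels ran from 0.319 to 758 RPKM and its dek37 levels from 0.0268 to 710 RPKM, and only 1 of its 6 loci had at least 10 RPKM. That locus, at 37229141 to 37234332, had 758 RPKM in WT against 710 in dek37, while the locus 531 bases after it stood at 1 read in both libraries. All 6 loci of this row had a lower value in dek37, including the one at 1 read in both. The second row spanned 20.9 kb on chromosome 1, from 264151582 to 264172500, with WT levels from 0.0597 to 66.3 RPKM, dek37 levels from 0.113 to 74.8 RPKM and 5 of 6 loci higher in dek37. The third row, on chromosome 6 from 144548172 to 144553491, packed 6 loci into 5.32 kb. It had 1 locus at 33.4 RPKM in WT against 37.6 in dek37 and the others at 6.80 RPKM or less in both. Of its loci, 3 were higher and 3 lower in dek37.

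The members with the largest single differences were set beside their neighbours, which were not chosen for their difference and so tend to have smaller ones. On chromosome 6, the locus at 97113476 to 97115733 went from 14 reads in WT (0.946 RPKM) to 1474 in dek37 (94.5 RPKM), a ratio of 99.96 (counting interval 48.3 to 249.5). Its neighbour 527 bases before it, at 97109506 to 97112948, had 80.3 RPKM in WT against 93.2 in dek37, a ratio of 1.16 (1.04 to 1.29). In WT the neighbour was far above it, and in dek37 the 2 loci were level. On chromosome 1, the locus at 11300051 to 11300765 had 1.60 RPKM in WT against 124 in dek37, a ratio of 77.3 (37.3 to 193). Its neighbour 399 bases before it, at 11296802 to 11299651, went from 1 read in WT to 42 reads in dek37 (0.0292 and 1.17 RPKM). Its ratio was 39.9, with a counting interval from 4.94 and no upper bound, which overlaps that of the locus beside it. The neighbour 386 bases after it, at 11301152 to 11301835, had 47.4 and 65.0 RPKM, a ratio of 1.37 (1.18 to 1.60). This row of 3 loci thus held 2 loci far higher in dek37, of which 1 was at low level, and a value near the median of all entries.

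In the other direction, the first locus was on chromosome 3, at 181748417 to 181750299, where WT gave 19.7 RPKM (332 reads) and dek37 0.226 RPKM (4 reads), with WT higher by a factor of 87.4 (counting interval 23.8 to 728). Its neighbour 786 bases away had 2 reads in WT and 1 in dek37, too few to compare. The second decrease was on chromosome 9 at 10275486 to 10277630, with 33.7 RPKM in WT against 1.33 in dek37, a factor of 25.3 (13.9 to 51.3). Its neighbour 868 bases before it, at 10271739 to 10274617, had 6.55 and 5.97 RPKM, a ratio of 0.911 (0.498 to 1.66). With 50 reads in WT and 48 in dek37, the neighbour showed no decrease of that size.

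Some members had reads in hardly more than a single library. A total of 34 of the 11308 members with fitted read numbers had 1 read in WT and at least 20 in dek37. This is close to the share of all entries (154 of 56835, or 0.271%). Their median was 2.97 RPKM in dek37. The reverse held for 4 of the 11308 members (beside 36 of 56835 entries, or 0.0633%), with a median of 3.29 RPKM in WT. Of the 39 neighbours of the 34 members, 9 stood at 1 read in both libraries and 12 had at least 20 reads in both. Some neighbours also had more reads in dek37, as on chromosome 3 at 229647574 to 229653156 (2 and 30 reads) and on chromosome 4 at 239680474 to 239682033 (38 and 180 reads), both named after their values were seen. The 4 members seen only in WT are named here after their values were seen. At chromosome 5, 10117318 to 10118871, the level was 8.06 RPKM in WT (118 reads) and 0.0649 RPKM (1 read) in dek37, while the neighbour 858 bases before it had 8 reads in WT and 20 in dek37. The locus on chromosome 1 at 61621307 to 61622780 gave 32 reads in WT (1.61 RPKM) and 1 read in dek37. It lay between 2 neighbours, 480 and 771 bases away, that had 11.7 and 59.2 RPKM in WT and 13.4 and 46.4 RPKM in dek37. On chromosome 10, the locus at 66639064 to 66639901 gave 24 reads in WT (2.76 RPKM) beside a neighbour with 74.1 RPKM in WT against 110 in dek37. The last, on chromosome 7 at 14522142 to 14522429, gave 20 reads in WT (3.83 RPKM) and had a neighbour at 1 read in both libraries.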

How the data were processed

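RNA-seq of endosperm was compared between 1 WT and 1 dek37 library. The authors deposited RPKM per entry, per the file headers, with a chromosome, start and end. The submitters' processing notes list Bowtie 0.12.2. The sources used here give neither build, annotation and counting program nor the handling of multi-mapping reads. Such reads can make near-identical neighbours look alike. Deposited starts were read as counted from 0 and are printed 1-based: RPKM times end minus start came out as whole reads in WT and dek37 alike for 615 entries, against 198 with 1 base added (relative tolerance 1e-06).

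Library totals came from the commonest product of RPKM and span, taken as 1 read. For 56835 of 56848 entries a length from 30 bases up to the span (at most 25000) fitted 1 read or an even number in each library (tolerance 1e-09). The smallest such numbers are printed. True read numbers can be larger, and the intervals drawn from the printed ones can be too wide. Ratio intervals are exact (Clopper-Pearson, 95%) on fragments of 2 reads, with 1 read counted as 0, and cover counting error only. Without molecular identifiers, reads are not independent molecules. At a length of 1 kb, 1 read is worth 0.0551 RPKM in WT and 0.0523 RPKM in dek37.

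Differences used a pseudocount of 1 and a floor of 10 RPKM in the higher library. No count model was run. Comparison values over every pair of 1 chromosome enumerate all pairs and draw none at random. Alternatives changed the pseudocount, the floor, the scaling, the fold threshold and the limits on gap, span and level. The floor stayed on deposited values under other scalings. No chance test was run over loci. Pair statistics, calls and read recovery were tested on simulated data. The pairs and loci named were those ranked by gap, level, joint or opposite difference, level difference, row length and single change, up to 3 of each. Members, thresholds and rules were chosen with earlier results of these data known. Python 3.11.15, numpy 2.4.6, pandas 2.3.3 and scipy 1.17.1 were used.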

Additional observations from a re-analysis of the deposited data

How the results depend on the processing

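Leaving out a library was not possible. No paired analysis was possible because neither genotype has a second library. Of 122 alternatives of the summary results, 41 moved little, 79 moved more and 2 reversed direction, and the causes were not tested. The median difference depended on scaling. From 0.37 it became -0.0175 after setting the median of all entries to 0, and -0.0188 after scaling by trimmed means of M values (30% and 5% trimmed). It was 0.0758 when totals were made equal leaving out the 50 most abundant entries. The first scaling places the median of members near 0 by construction, since they shared the shift. The second shifted dek37 by nearly the same amount (0.405 and 0.406 log2 units). The 2 reversals came from these and do not bear on members in particular. The first and second scalings each gave 174 members higher, 189 lower, 4 pairs both higher, 10 both lower and 2 opposite. The last scaling gave 215, 160, 5 and 9 with 1 opposite. A pseudocount of 0.1 gave 2 pairs both lower and 2 opposite. A pseudocount of 5 gave 237 members higher, a median of 0.31, r of level of 0.180 (WT) and 0.191 (dek37) and 6 pairs both higher. A floor of 1 RPKM gave 961 members higher, 273 lower, a median of 0.34, 70 pairs both higher, 8 both lower and 11 opposite. Without a floor these counts were 961, 273, 70, 8 and 11, the median was 0.13 and r of the difference 0.133. A floor of 50 RPKM left 53 pairs, with 96 members higher, 27 lower, a median of 0.40, r of the difference of 0.118, 73.6% of pairs on 1 side, 1 pair both higher, 0 both lower and 0 opposite. At 4-fold, read on differences with the pseudocount of 1, there were 67 members higher, 17 lower and 0 pairs of each kind. By RPKM ratio without it, both loci passed 4-fold in the named pair higher on chromosome 5 (5.28 and 4.56). The same held for the pair lower on chromosome 2 (8.95 and 4.03). Gaps below 250 bases gave 99 higher, 24 lower, a median of 0.40, r of level of 0.343 and 0.346, r of the difference of 0.307, 63.4% on 1 side, 7 pairs both higher, 0 both lower and 0 opposite. Gaps below 500 bases gave 232, 46, 0.40, 0.272, 0.282, 0 both lower and 0 opposite, and gaps below 2000 bases gave 637 higher, r of level of 0.179 and 0.191, 27 pairs both higher and 2 both lower. Spans below 5000 bases gave 62.2% on 1 side. Alternatives chosen after seeing the data were both loci at 1 RPKM or more, with r of level of 0.149 and 0.165, gaps below 100 bases, with 0.306, 0.310, r of the difference of 0.403 and 77.6% on 1 side, and gaps of 100 to under 1000 bases, with 0.205, 0.216, 0.212 and 56.3%. The comparisons with every pair of members, or of the same loci, were also added then. Spearman's rho of level was 0.242 and 0.252. Of 90 alternatives for the 18 named loci past 2-fold, 0 reversed and 4 fell below 2-fold.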
